A study of Homo sapiens with 24 samples.

Results

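Expression was followed for 59 genes of the short arm of human chromosome 11, from RRP8 in band 11p15.4 to CSTF3 in 11p13, among 17448 genes measured. They were chosen by name because their region had been seen higher in the DPPA3-induced line than in its control line, in both cultures in which those lines were arrayed. The differences between these lines are therefore a description of the choice and carry no test here. The samples were 24 arrays of SW1222, an established colorectal cancer cell line, in 9 groups, all grown at 21% oxygen. The inducible line overexpressing DPPA3 and its control line were grown in 3D, as megacolonies embedded in Matrigel, with 5 µg/ml doxycycline for 5 days. Both lines were also grown in 2D with the same dose for 4 hours. These 4 groups had 3 arrays each. Untreated 3D megacolonies with a control shRNA or a DPPA3 shRNA had 3 arrays each. Untreated 3D megacolonies with a scrambled guide RNA, of CRISPR DPPA3 clone 66 (C66) or of clone 75 (C75) had 2 arrays each, and each knockout line was 1 clone. No arrays of the inducible line without doxycycline were analysed here, so a standing difference between the lines cannot be told apart from a DPPA3 response. Whether the replicates came from separate cultures is not in the labels, and the p-values cover the spread among these arrays alone.

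DPPA3 is a small protein of oocytes and early germ cells that binds UHRF1, a factor needed to copy DNA methylation through replication. The 59 genes belong to no single pathway. They include housekeeping genes of translation, vesicle traffic and transcription, cell-cycle regulators such as WEE1, and LGR4, a receptor for R-spondins that strengthens Wnt signalling in the intestinal epithelium. What they share is their place, and neighbouring genes of a chromosome share its copy number, its chromatin and sometimes a promoter. DNA copy number was not measured on these arrays.

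Promoter sequences from RefSeq (GRCh38.p14) were matched to 50 of the 59 members by symbol. Those of STK33, WEE1, DKK3, PARVA, TEAD1, PLEKHA7, ZDHHC13, E2F8 and DNAJC24 were not matched. Shown are the stretches between the starts of 3 head-to-head pairs, whose genes run in opposite directions from 1 shared promoter. Beside them stand the 250 bases before PRMT3, which had one of the largest differences between the lines, and before LIN7C, where the differences ended in gene order. Capitals mark CG dinucleotides, the letters at which DNA methylation is placed. Each pair is written on the plus strand, at chr11:6603617-6603773 for RRP8 and ILK, chr11:28108157-28108387 for KIF18A and METTL15, and chr11:31509623-31509766 for IMMP1L and ELP4. PRMT3 is on the plus strand at chr11:20387466-20387715, and LIN7C on the minus strand at chr11:27506770-27507019.
RRP8/ILK: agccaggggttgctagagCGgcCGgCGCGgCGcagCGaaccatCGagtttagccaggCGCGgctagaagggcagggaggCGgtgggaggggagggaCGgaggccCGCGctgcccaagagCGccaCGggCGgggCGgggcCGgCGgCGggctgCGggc
PRMT3: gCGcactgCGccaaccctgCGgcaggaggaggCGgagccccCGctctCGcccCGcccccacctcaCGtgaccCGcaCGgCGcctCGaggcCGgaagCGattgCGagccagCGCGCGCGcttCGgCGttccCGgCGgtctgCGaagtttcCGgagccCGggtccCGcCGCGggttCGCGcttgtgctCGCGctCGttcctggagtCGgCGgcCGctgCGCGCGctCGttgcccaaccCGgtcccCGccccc
LIN7C: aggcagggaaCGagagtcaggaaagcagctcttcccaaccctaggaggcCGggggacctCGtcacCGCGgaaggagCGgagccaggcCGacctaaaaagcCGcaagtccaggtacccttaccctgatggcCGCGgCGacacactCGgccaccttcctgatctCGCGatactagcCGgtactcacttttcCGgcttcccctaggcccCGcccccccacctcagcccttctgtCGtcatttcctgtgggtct
KIF18A/METTL15: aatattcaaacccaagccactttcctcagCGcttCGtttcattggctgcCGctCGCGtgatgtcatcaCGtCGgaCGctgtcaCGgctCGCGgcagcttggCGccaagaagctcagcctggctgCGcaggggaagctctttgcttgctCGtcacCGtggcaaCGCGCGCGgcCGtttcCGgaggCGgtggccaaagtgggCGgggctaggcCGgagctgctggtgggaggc
IMMP1L/ELP4: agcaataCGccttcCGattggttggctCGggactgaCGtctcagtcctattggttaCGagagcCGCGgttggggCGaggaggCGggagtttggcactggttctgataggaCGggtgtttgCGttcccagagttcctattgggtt
The stretch between RRP8 and ILK held 21 CG dinucleotides in 157 bases, that between KIF18A and METTL15 24 in 231 bases, and that between IMMP1L and ELP4 11 in 144 bases. PRMT3 had 43 in 250 bases, the most of any member's window, and LIN7C 18. Over windows of 300 bases, the CG-richest of each gene, the median was 24.5 for the 50 members, 23 for 7199 other genes above the median level and 12 for all 27305 genes of the table. It was 21 for the 22 matched members separated in both cultures, meaning that all induced arrays lay above all control arrays, and 25 for the 18 separated in neither, so PRMT3 and LIN7C are not typical of those sets. The core letters of hypoxia response elements, ACGTG or GCGTG on either strand, lay in a window of 36 of the 50 members (72%), against 65.8% of those 7199 genes and 47.4% of all. These letters contain a CG, so their share moves with the CG content, and a match is not a binding site.

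DPPA3 lay between 3.77 and 6.16 (log2) on the 6 arrays of the induced line and between 2.55 and 3.47 on the other 18. The 11 markers of colorectal epithelium were all above the median level of 4.09, from CDX1 at 6.16 to LGALS4 at 11.1. Of 5 fibroblast markers 1 exceeded that median (COL1A1, 4.24), and of 5 measured leukocyte and endothelial markers 0 did. Levels are log2 values of a probe set and are compared between arrays, not between genes, except for the split at the median level.

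In 3D, the median difference of the 59 members between the induced and the control line was 0.27 log2 (interquartile range 0.10 to 0.56), against -0.01 over all genes. In 2D it was 0.45 (0.11 to 0.65), against 0.00 over all genes. A member is called separated where each of the 3 induced arrays lay above each of the 3 control arrays. This held for 28 members in 3D (47.5%), for 36 in 2D (61.0%) and for 26 in both (44.1%). Among all genes the shares were 8.71% in 3D, 9.61% in 2D and 2.8% in both, and since the members were chosen on these contrasts nothing is read from the gap. SERGEF and TCP11L1 were separated in 3D alone. AKIP1, WEE1, SWAP70, CTR9, NUCB2, SAAL1, GTF2H1, E2F8, NAV2 and SVIP were separated in 2D alone. The arrays of the other 21 overlapped in both cultures or lay the other way in one of them. Lower without overlap were KIF18A and E2F8 in 3D, where 9.57% of all genes were, and METTL15 in 2D, where 7.09% were.

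**Figure D1:**
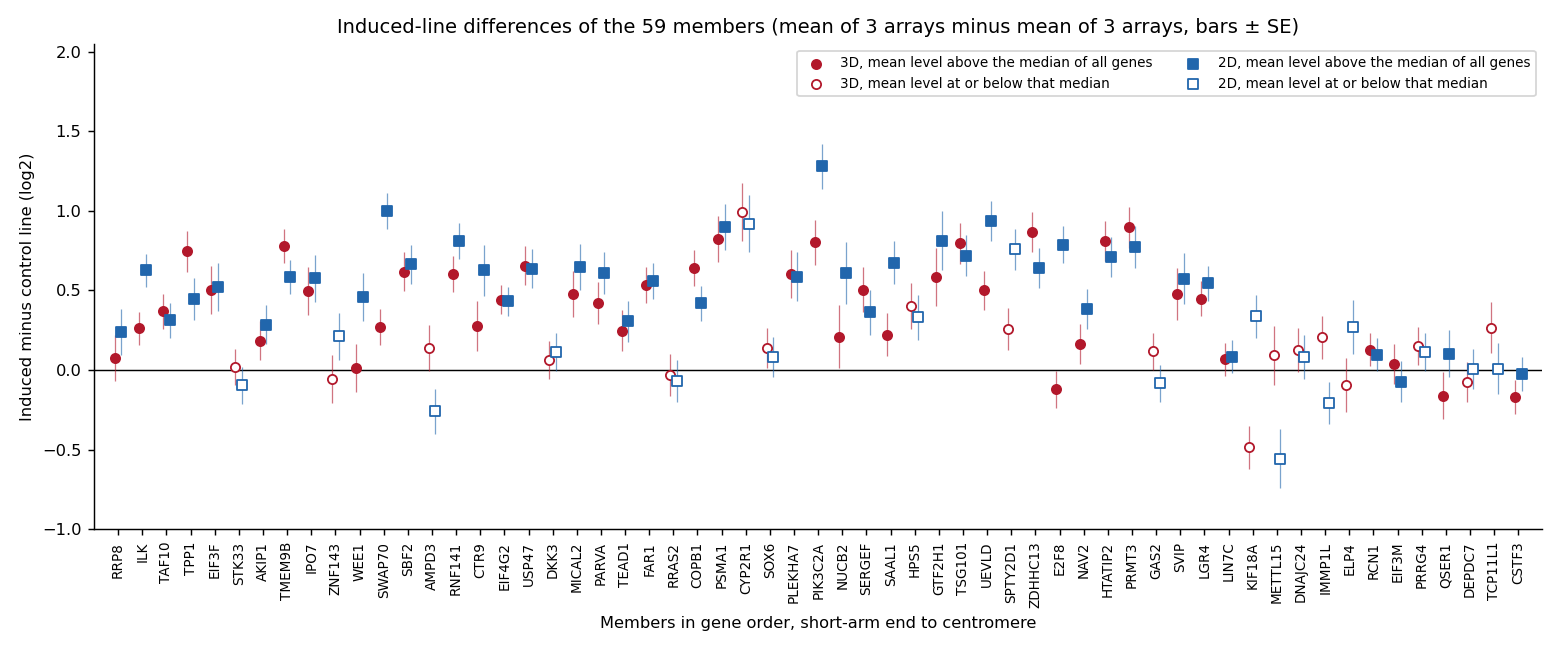
Each member's mean of 3 induced arrays minus its mean of 3 control arrays (y axis, log2), in gene order from the short-arm end to the centromere (x axis); circles are 3D, squares 2D, bars the standard error of the difference in the limma fit, and open symbols members at or below the median level of all genes. The filled symbols lie mostly between 0.2 and 1.0 up to LGR4 and near 0 from LIN7C on.

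How bright a member was and where it lay both went with its difference. Of 41 members above the median level, 24 were separated in both cultures (58.5%), and of the 18 others 2 were, CYP2R1 and SPTY2D1. On other chromosomes, 4.64% of the genes above the median level were separated in both cultures, against 2.7% at any level. Bright genes were thus separated more often elsewhere too. The median differences were 0.48 (3D) and 0.58 (2D) for the brighter members and 0.12 and 0.08 for the dimmer. Near background an array compresses differences, so the overlap of a dim member does not show that its RNA was level between the lines. Across the 59 members the mean of both differences and the mean level had a Pearson correlation of 0.39 and a Spearman correlation of 0.42, given as a description of values that share arrays. HPS5, a subunit of the BLOC-2 complex of lysosome-related organelles, is a dim member whose arrays overlapped only narrowly, with differences of 0.40 and 0.33.

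**Figure D2:**
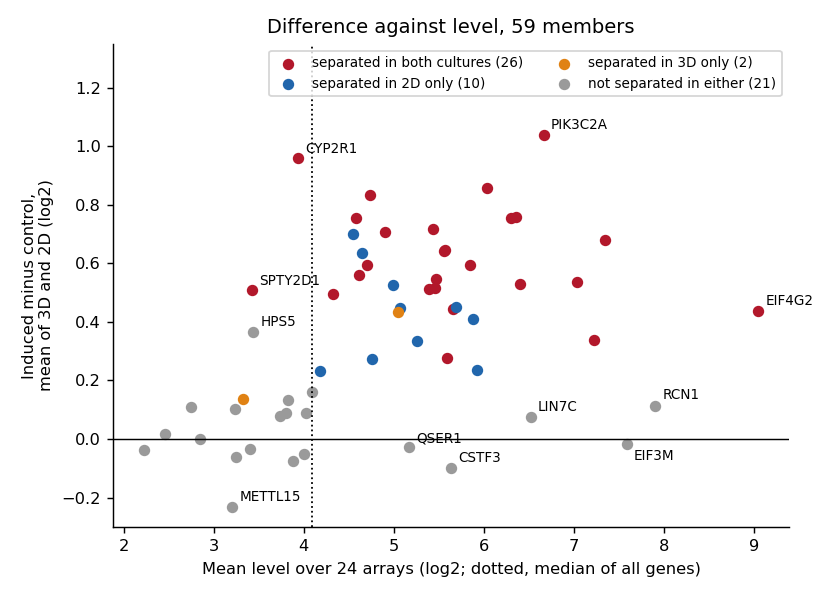
Mean over 24 arrays (x axis, log2) against the mean of the 3D and 2D differences between induced and control line (y axis, log2) for the 59 members, coloured by whether the 3 induced arrays lay above the 3 control arrays; the dotted line is the median level of all genes, 4.09. To its right 24 of 41 members were separated in both cultures (58.5%), where 4.64% of such genes on other chromosomes were. The members were chosen on these contrasts, so nothing is read from the gap. LIN7C, RCN1, EIF3M, QSER1 and CSTF3 lie near 0 in spite of levels well above the dotted line.

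In gene order the differences ended between LGR4 and LIN7C, a split chosen after seeing the data. Up to LGR4, 36 members were above the median level. Of these, 24 were separated in both cultures, where 4.64% of the genes above that level on other chromosomes were. The median differences of the 36 were 0.50 in 3D (1.41-fold) and 0.61 in 2D (1.53-fold). RRP8 alone among these 36 was separated in neither culture. From LIN7C on, 5 members were above the median level, LIN7C, RCN1, EIF3M, QSER1 and CSTF3, and 0 were separated in either culture. Their median differences were 0.04 in 3D and 0.08 in 2D. LGR4 measured 4.51, 4.77 and 4.42 on the induced 3D arrays and 4.11, 3.99 and 4.25 on the controls. The 2D values were 4.46, 4.65 and 4.87 against 4.02, 4.19 and 4.13. LIN7C, which encodes a scaffold of cell polarity and is the next member in gene order, measured 6.71, 6.48 and 6.72 against 6.62, 6.53 and 6.55 in 3D. In 2D its arrays read 6.78, 6.97 and 6.85 against 6.68, 6.90 and 6.75. The arrays of LGR4 were clear of each other in both cultures and those of LIN7C overlapped in both.

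In consecutive stretches of members the median difference in 3D was 0.32 for RRP8 to ZNF143, 0.36 for WEE1 to MICAL2, 0.57 for PARVA to PIK3C2A, 0.45 for NUCB2 to E2F8, 0.14 for NAV2 to DNAJC24 and 0.04 for IMMP1L to CSTF3. In 2D the same stretches had 0.38, 0.63, 0.57, 0.70, 0.36 and 0.01. Along chromosome 11, a running median over 11 neighbouring genes above the median level reached its highest value inside the members' interval in both cultures. It was 0.60 at C11orf58 in 3D and 0.71 at UEVLD in 2D, while its median over the genes outside the interval was -0.01 and 0.05. Since the region was chosen on these contrasts, nothing is read from the peak lying inside it.

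**Figure D3:**
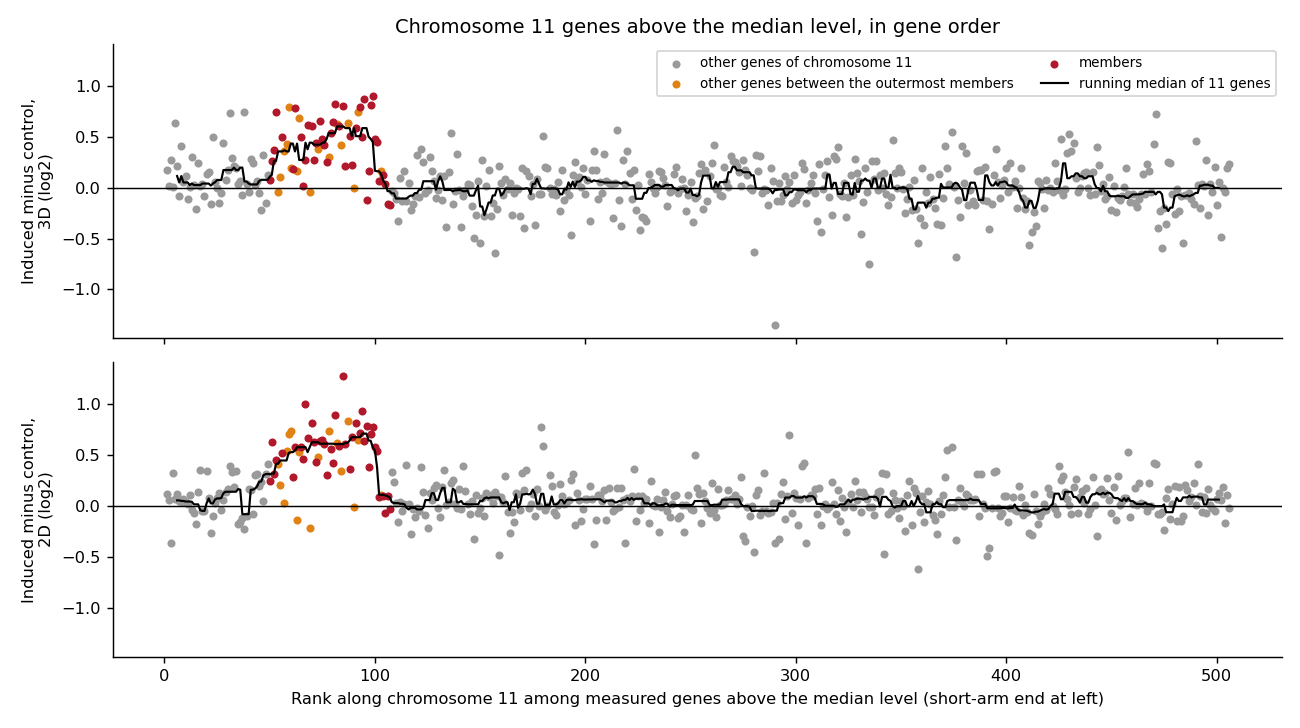
Differences between the induced and control line (y axes, log2; upper panel 3D, lower panel 2D) of the 506 genes of chromosome 11 above the median level, by rank from the short-arm end (x axis); red points are members, orange points other genes between the outermost members, grey points the rest, and the line a running median of 11 genes. The line reaches 0.60 in 3D and 0.71 in 2D inside the interval and lies near 0 along most of the remaining chromosome.

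The arrays measured 96 other genes between RRP8 and CSTF3, most of them dim, with median differences of 0.04 (3D) and 0.02 (2D). Of the 17 above the median level, 8 were separated in both cultures (47.1%), where 4.64% of such genes on other chromosomes were. The medians of the 17 were 0.36 and 0.48. They lie in the region that was chosen on these contrasts, so their values too are a description and no test of it. LDHA, the lactate dehydrogenase subunit of the glycolytic response to low oxygen, lies between GTF2H1 and TSG101. It measured 8.91, 9.21 and 9.09 against 8.14, 8.35 and 8.49 in 3D, and 8.88, 8.85 and 9.01 against 8.30, 8.20 and 8.30 in 2D. The 12 arrays of the shRNA and knockout experiments lay between 8.40 and 8.88, a range that held the highest 3D control array and reached 2 of the 3 induced 2D arrays. ADM, another gene induced by low oxygen, lies between SBF2 and AMPD3, and its arrays overlapped in both cultures, with differences of -0.04 and -0.22. SNORA3A (0.79 in 3D and 0.71 in 2D), USH1C (0.64 and 0.84), C11orf58 (0.63 and 0.62), TMEM41B (0.69 and 0.53) and BTBD10 (0.30 and 0.73) had the largest differences beside LDHA. MRPL17 (-0.05 and 0.41), PPFIBP2 (0.11 and 0.21), ARL14EP (0.16 and 0.11), DENND5A (0.17 and -0.14) and ST13P5 (0.00 and -0.01) had the smallest beside ADM. Beyond CSTF3, the next 18 genes above the median level among 40 measured had medians of -0.05 and 0.00. Beyond RRP8, the 40 measured genes held only 3 above the median level, FHIP1B, ARFIP2 and TIMM10B, with medians of 0.13 and 0.32, so the edge at that end was thinly measured.

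Some members of membrane traffic and the endosome were among those with the largest differences. PIK3C2A, a lipid kinase of clathrin-mediated endocytosis, measured 7.03, 7.54 and 7.44 on induced and 6.24, 6.58 and 6.78 on control arrays in 3D. Its 2D arrays read 7.55, 7.11 and 7.24 against 5.90, 6.11 and 6.03. The difference was 0.80 (1.74-fold) in 3D and 1.28 (2.43-fold) in 2D, with no overlap and the largest 2D difference of the 59. TSG101, a subunit of the ESCRT-I complex that sorts ubiquitin-tagged cargo into multivesicular bodies, measured 7.25, 6.64 and 7.04 against 6.18, 6.30 and 6.06 in 3D. In 2D its arrays read 7.01, 7.14 and 7.09 against 6.19, 6.44 and 6.46. UEVLD, its neighbour with a ubiquitin-conjugating enzyme variant domain, measured 5.88, 5.85 and 6.16 against 5.48, 5.38 and 5.53 in 3D. The induced arrays of both genes were clear of the controls in 3D, by means of 0.80 for TSG101 and 0.50 for UEVLD. In 2D UEVLD measured 6.16, 6.16 and 6.37 against 5.31, 5.32 and 5.26, a difference of 0.94, and TSG101 differed by 0.72. ZDHHC13, of the palmitoyltransferase family, measured 5.21, 5.20 and 5.27 against 4.6, 4.35 and 4.12 in 3D. In 2D it measured 4.94, 4.87 and 5.19 against 4.07, 4.45 and 4.56. All of these were separated in both cultures. So were COPB1, a COPI coat subunit (0.64 and 0.42), IPO7, a nuclear import receptor (0.50 and 0.58), SBF2, a myotubularin-related protein that lacks phosphatase activity (0.62 and 0.66), and TPP1, a lysosomal peptidase (0.75 and 0.45). Of the same roles, SERGEF (0.51 and 0.36) was separated in 3D alone and HPS5 in neither culture.

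Among the 9 members of translation and protein turnover, 5 were separated in both cultures, SVIP in 2D alone, and DNAJC24, ELP4 and EIF3M in neither. PSMA1, an alpha subunit of the 20S proteasome, measured 6.51, 7.03 and 6.66 against 5.59, 5.96 and 6.20 in 3D. The 2D values were 7.02, 6.80 and 7.19 against 6.07, 6.16 and 6.09. The differences were 0.82 (1.77-fold) and 0.90 (1.86-fold). PRMT3, an arginine methyltransferase of a ribosomal protein, whose CG-rich promoter is shown above, measured 5.33, 5.68 and 5.30 against 4.47, 4.49 and 4.65 in 3D. Its 2D arrays read 5.77, 5.57 and 6.04 against 4.97, 5.29 and 4.80. Its differences were 0.90 and 0.77. The initiation complex eIF3 has subunits at both ends of the interval, EIF3F near the short-arm end with differences of 0.50 and 0.52, and EIF3M past LIN7C with 0.04 and -0.07. EIF4G2, an initiation factor of the eIF4G family and the brightest member at a mean of 9.05, differed by 0.44 and 0.43.

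In metabolism, CYP2R1, which makes 25-hydroxyvitamin D, measured 4.88, 5.15 and 4.78 against 3.67, 3.55 and 4.61 in 3D. In 2D it measured 4.34, 3.98 and 4.24 against 3.14, 3.40 and 3.26. Its 3D difference of 1.0 (2.0-fold) was the largest of the 59, with the third control array close to the induced ones. FAR1, a fatty acyl-CoA reductase of ether lipid synthesis, differed by 0.54 and 0.56 and was separated in both cultures. AMPD3, an AMP deaminase below the median level, measured 3.21, 3.18 and 3.56 against 3.29, 3.07 and 3.17 in 3D. The 2D values were 3.03, 3.43 and 3.17 against 3.21, 3.49 and 3.71, so its arrays overlapped in both. HTATIP2, a short-chain dehydrogenase also known as TIP30, measured 6.86, 7.07 and 6.94 against 5.88, 6.16 and 6.4 in 3D. Its 2D arrays read 7.10, 7.0 and 7.49 against 6.51, 6.53 and 6.42, and it was separated in both, by 0.81 and 0.71.

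The 3 cell-cycle members, by their brightest probe sets, had unlike differences in the 2 cultures. WEE1, the kinase that holds CDK1 inactive before mitosis, measured 6.52, 6.25 and 6.27 against 6.26, 6.23 and 6.51 in 3D. In 2D it measured 6.08, 5.94 and 5.69 against 5.39, 5.53 and 5.41. Its arrays overlapped in 3D and were separated in 2D, where the difference was 0.46. E2F8, an atypical E2F that represses its targets, measured 5.25, 5.30 and 5.26 against 5.33, 5.45 and 5.40 in 3D, lower without overlap. The 2D values were 6.19, 6.16 and 6.38 against 5.35, 5.74 and 5.28, higher without overlap. KIF18A, a kinesin of chromosome alignment past LIN7C in gene order, measured 3.83, 3.87 and 3.90 against 4.11, 4.41 and 4.54 in 3D. Its 2D arrays read 4.27, 4.09 and 4.56 against 3.77, 4.23 and 3.91. The 2D minus the 3D difference was 0.44 for WEE1, 0.91 for E2F8 and 0.82 for KIF18A, against a median of 0.05 over the 59. For WEE1 that sign depends on the probe set, since the others gave 0.44 (0.06 in 3D and 0.49 in 2D) and -0.40 (0.69 and 0.28). MKI67, a proliferation marker on another chromosome that was chosen after its values were seen, measured 7.30, 7.76 and 7.28 against 7.97, 8.0 and 8.06 in 3D and differed by -0.05 in 2D, and its part in these values was not tested.

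In transcription and RNA processing, 3 of 10 members were separated in both cultures, TAF10, TEAD1 and SPTY2D1. CSTF3, a subunit of the factor that cleaves pre-mRNA 3′ ends, measured 5.85, 5.68 and 5.74 against 6.07, 5.89 and 5.81 in 3D. In 2D it measured 5.66, 5.89 and 5.74 against 5.73, 5.86 and 5.78. Its differences were -0.17 and -0.03 at a level well above the median. QSER1, which guards developmental promoters against DNA methylation, measured 5.12, 5.50 and 5.00 against 5.40, 5.33 and 5.37 in 3D. The 2D values were 5.41, 5.30 and 5.17 against 5.22, 5.53 and 4.83. Both genes lie past LIN7C, and their arrays overlapped in both cultures. RRP8, which methylates ribosomal RNA, measured 4.61, 4.59 and 4.17 against 4.33, 4.47 and 4.35 in 3D, and 4.37, 4.76 and 4.72 against 4.29, 4.76 and 4.08 in 2D. ILK, the integrin-linked kinase read from the other side of the same promoter, measured 6.05, 6.02 and 5.82 against 5.67, 5.67 and 5.76 in 3D, and 6.25, 6.16 and 6.15 against 5.70, 5.47 and 5.51 in 2D. ILK was separated in both cultures (0.26 and 0.63) and RRP8, at the median level itself, in neither (0.08 and 0.24).

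Among signalling members, TMEM9B (0.78 and 0.58) and LGR4 were separated in both cultures, and SWAP70 (0.27 and 1.0) and AKIP1 (0.18 and 0.28) in 2D alone. RRAS2, a Ras-related GTPase, measured 3.99, 3.72 and 4.03 against 3.99, 3.79 and 4.05 in 3D, and 3.81, 4.33 and 3.99 against 4.06, 4.09 and 4.18 in 2D. STK33, a serine/threonine kinase, measured 2.17, 2.35 and 2.11 against 2.23, 2.17 and 2.17 in 3D, and 2.29, 2.18 and 2.14 against 2.46, 1.95 and 2.48 in 2D. Both overlapped throughout and both were below the median level. The mitochondrial members were dim as well. METTL15, a methyltransferase of mitochondrial ribosomal RNA, measured 3.18, 3.04 and 3.85 against 3.33, 3.12 and 3.35 in 3D, and 2.90, 2.61 and 2.42 against 2.97, 2.92 and 3.71 in 2D. It was lower without overlap in 2D, by a mean of -0.56, the lowest value of the 59 there. DEPDC7 measured 3.19, 3.61 and 3.29 against 3.26, 3.68 and 3.37 in 3D, and 3.69, 3.29 and 3.56 against 3.44, 3.40 and 3.68 in 2D, overlapping in both.

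Over the 9 groups, the members' median deviation from their own means stood above 0 on all 6 induced arrays. It was 0.28, 0.34 and 0.27 in 3D and 0.37, 0.34 and 0.53 in 2D. The control line gave -0.08, -0.05 and 0.03 in 3D and -0.04, 0.10 and -0.03 in 2D. All 12 arrays of the shRNA and knockout experiments lay lower still, from -0.26 to -0.11, while the median of all genes stayed between -0.02 and 0.02 on every array. Between experiments the line and the experiment cannot be told apart. Over the 36 brighter members up to LGR4, the mean of the arrays' values was 0.44 ± 0.06 (SD, n = 3) in the induced line in 3D and -0.06 ± 0.04 in its control. In 2D it was 0.57 ± 0.07 against -0.03 ± 0.07. The induced line in 2D had the highest group mean for 30 of the 59 members, and the induced line in 3D for 16. Since the members were chosen as higher in the induced line, nothing is read from these counts, which have no share of all genes beside them.

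**Figure D4:**
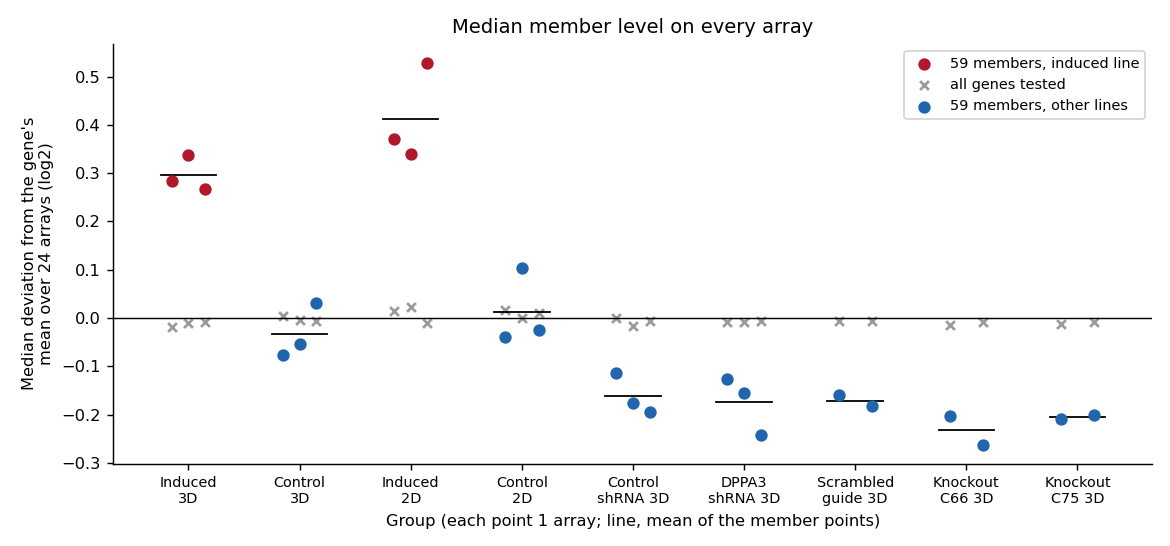
Each point is 1 array: the median over the 59 members of the level minus the member's mean over 24 arrays (y axis, log2), by group (x axis); red points are the induced line, blue points all other lines, crosses the same median over all genes tested, and lines the group mean. The 6 red points lie between 0.27 and 0.53, the highest blue point at 0.10, and the crosses near 0.

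One array of the 3D control line, its replicate 3, read higher than the other controls of its group in several members (CYP2R1 at 4.61 against 3.67 and 3.55, SVIP at 5.54 against 4.84 and 4.90). In others it read lowest (TPP1 at 5.7 against 5.85 and 6.14, TEAD1 at 5.37 against 5.51 and 5.52). Without this array, 35 members were separated in 3D against 14% of all genes, and the median difference was 0.30. In both cultures 30 members were then separated, a count with no share of all genes beside it, so nothing is read from it. NUCB2, SAAL1, GTF2H1, SVIP, IMMP1L, RCN1 and PRRG4 were the members added in 3D. Leaving out an array can only keep or add separated members, so nothing is read from the gain. Without replicate 3 of the induced line in 3D the count was 35 as well, again with no share of all genes beside it.

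On the arrays that the choice of members did not use, few members were called, as were few of all genes. DPPA3 knockdown against control shRNA gave 0 members called by limma at an adjusted p under 0.05, where 0.086% of all genes were called, and 5 members (8.47%) had an unadjusted p under 0.05 against 5.26% of all genes. The members' median difference was -0.02, against 0.00 over all genes. HTATIP2 had the smallest adjusted p, with 5.76, 5.76 and 5.88 under the DPPA3 shRNA and 6.26, 6.18 and 5.99 under the control, a difference of -0.34 (limma adjusted p = 0.709).

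For the knockout clones, 0 members were called by limma in C66, where 1.43% of all genes were, and 0 in C75, where 0.619% were. At an unadjusted p under 0.05, 4 members (6.78%) passed in C66 against 9.55% of all genes, and 2 (3.39%) in C75 against 8.12%. Their median differences from the scrambled guide were -0.06 and -0.02, and the 2 clones share those control arrays. WEE1 measured 6.04 and 5.67 with the scrambled guide, 5.00 and 5.36 in C66, and 6.11 and 5.82 in C75. C66 lay below both other groups, by -0.68 from the scrambled guide (SE 0.18, limma adjusted p = 0.0683). The 2 dimmer probe sets of WEE1 gave 0.06 and -0.21 for that difference. Directly between the clones, 1 member was called against 2.9% of all genes: WEE1 was 0.78 higher in C75 than in C66 (SE 0.18, limma adjusted p = 0.0147), with both arrays of C75 above both of C66. WEE1 has 3 probe sets, and the 2 dimmer ones gave 0.11 and 0.03 for this difference. With the mean of the probe sets the call was lost (0.31, limma adjusted p = 0.271), as it was without replicate 1 of C75 (0.64, limma adjusted p = 0.256) or of C66 (0.60, limma adjusted p = 0.31).

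Culture was compared as 3D over 2D averaged over the induced and control lines, a contrast uncorrelated with those behind the choice of members. It also carries the longer doxycycline treatment, and the 2 cannot be told apart. By limma, 17 of 59 members changed (28.8%), 5 higher and 12 lower in 3D. Of all genes 21.7% were called, 11.3% higher and 10.4% lower. Lower calls thus outnumbered higher ones among the members but not among all genes, and the reason was not tested. TPP1 rose, with 6.67, 6.62 and 6.64 in the induced line in 3D against 5.88, 5.6 and 5.75 in 2D, and for the control line with 5.85, 6.14 and 5.70 against 5.21, 5.37 and 5.31. The culture difference was 0.75 (SE 0.09, limma adjusted p = 1.35e-06), and the 3D and 2D arrays did not overlap within either line. CYP2R1 rose by 0.71 (SE 0.13, limma adjusted p = 0.000209), WEE1 by 0.66 (SE 0.11, limma adjusted p = 5.21e-05) and SBF2 by 0.50 (SE 0.09, limma adjusted p = 0.000121). With the mean of its probe sets WEE1 gave 0.25 (limma adjusted p = 0.00973), and the dimmer ones gave 0.30 and -0.22. SBF2 measured 6.16, 6.24 and 6.31 in 3D against 5.69, 5.88 and 5.70 in 2D in the induced line, and for the control line 5.63, 5.63 and 5.59 against 4.98, 5.17 and 5.13. METTL15 rose by 0.39, a call that did not hold in 9 of 17 alternatives (limma adjusted p up to 0.13).

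Lower in 3D were E2F8, by a difference of -0.52 (SE 0.08, limma adjusted p = 3.68e-05), and SAAL1, by -0.46 (SE 0.10, limma adjusted p = 0.000811). SAAL1 measured 5.31, 5.55 and 5.10 in 3D against 5.98, 5.80 and 6.26 in 2D in the induced line, and for the control line 5.01, 5.08 and 5.22 against 5.20, 5.21 and 5.6. TEAD1, the transcription factor partner of YAP in the Hippo pathway, fell by 0.43 (SE 0.09, limma adjusted p = 0.00113), with 5.72, 5.61 and 5.81 against 6.21, 6.15 and 6.15 in the induced line, and for the control line 5.51, 5.52 and 5.37 against 5.73, 5.74 and 6.12. The 3D and 2D arrays of TEAD1 did not overlap within either line. SPTY2D1 (-0.43), PRMT3 (-0.42), EIF4G2 (-0.39), SWAP70 (-0.36), PARVA (-0.32), HTATIP2 (-0.29), AKIP1 (-0.27), FAR1 (-0.26) and LIN7C (-0.22) were called lower as well. The calls of LIN7C, AKIP1, FAR1, HTATIP2 and PARVA were lost in 6, 5, 5, 4 and 1 of 18 alternatives. Genes on both sides of the LGR4 to LIN7C border were thus called by culture. Within the lines, the 3D and 2D arrays were clear of each other in both lines for 8 of the 17 called members, in the induced line alone for 6, in the control line alone for 2 and in neither for FAR1. These counts have no share of all called genes beside them, so nothing is read from their size. In E2F8 the 3D minus 2D difference was -0.98 in the induced line and -0.06 in the control line, in SWAP70 -0.72 and 0.01, and in METTL15 0.71 and 0.07. The averaged calls of these 3 members therefore rest on the induced line.

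Many members are subunits of protein complexes whose other subunits are encoded elsewhere, and those partners were not used to choose the members. Of 84 partners listed for 11 complexes 77 were measured, and their median difference between the lines was -0.05 in 3D and 0.05 in 2D. By limma 3 partners changed in 3D (3.9%, against 5.7% of all genes) and 3 in 2D (3.9%, against 3.13%), and they were the same 3 genes. The 13 proteasome core partners of PSMA1 had medians of 0.00 and 0.11 with 0 called, the 10 eIF3 partners -0.04 and 0.01 with 0 called, and the 7 COPI partners of COPB1 0.09 and 0.06 with 0 called. Partners of CTR9 in the PAF1 complex (5 measured, medians -0.29 and -0.08), of GTF2H1 in TFIIH (8, -0.06 and -0.09), of TAF10 in TFIID (12, -0.11 and 0.05), of ELP4 in Elongator (4, -0.16 and 0.17) and of HPS5 in BLOC-2 (2, 0.25 and 0.16) had 0 called too. At an unadjusted p under 0.05, 14 of the 77 partners passed in 3D (18.2%, against 16.0% of all genes) and 12 in 2D (15.6%, against 13.6%). VPS37A, which joins TSG101 in ESCRT-I and is encoded on chromosome 8, rose by 0.78 in 3D (limma adjusted p = 0.00182) and 1.01 in 2D (limma adjusted p = 0.000162). It measured 6.16, 6.09 and 6.10 against 5.07, 5.25 and 5.69 in 3D, and 6.11, 6.05 and 6.16 against 4.97, 5.29 and 5.02 in 2D, so it stood clear of the controls in both. RSU1, a chromosome 10 gene whose protein binds the complex of ILK, PINCH and parvin, fell by 0.75 in 3D (limma adjusted p = 1.66e-05) and fell by 0.79 in 2D (limma adjusted p = 1.56e-05), while ILK and PARVA were higher in the induced line. CSTF2T, a cleavage stimulation factor subunit also on chromosome 10, fell by 0.73 in 3D and fell by 0.65 in 2D (limma adjusted p = 8.74e-05 and 0.000506), where its partner CSTF3 differed by -0.17 and -0.03.

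**Figure D5:**
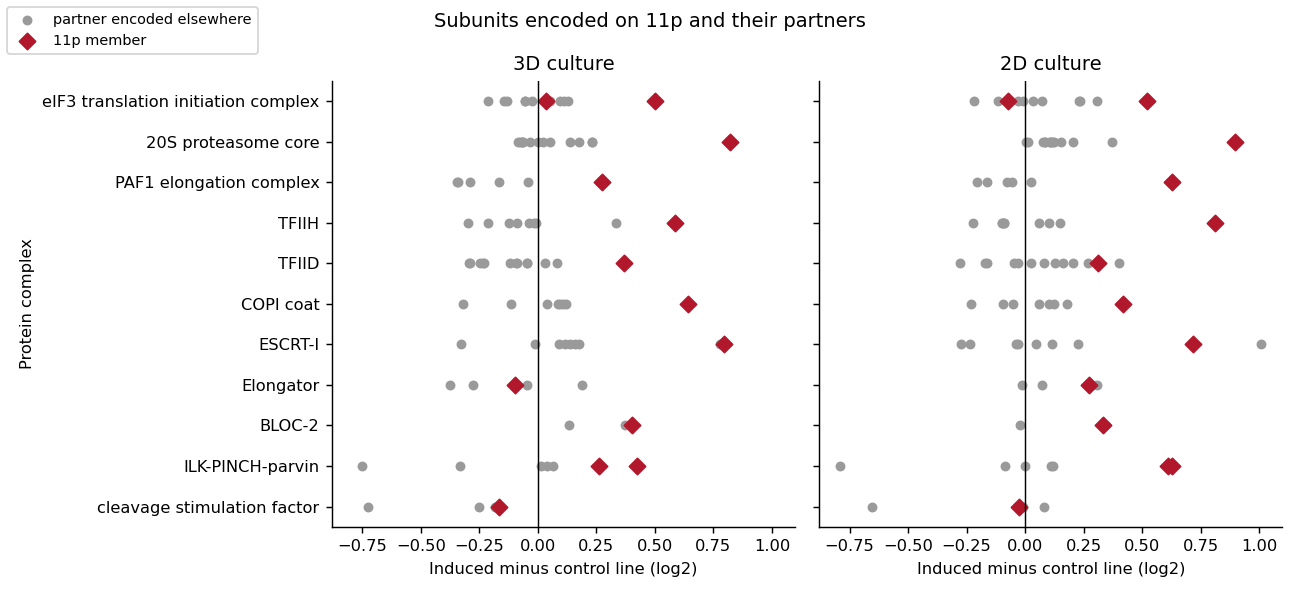
Differences between the induced and control line (x axes, log2; left 3D, right 2D) of members (red diamonds) and of their partners encoded elsewhere (grey points) in 11 protein complexes (y axis). PSMA1, GTF2H1, CTR9 and COPB1 stand to the right of all measured partners in both panels, and VPS37A, in the ESCRT-I row, is the grey point farthest to the right in 2D, at 1.01.

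Across the 59 members the 3D and 2D differences had a Pearson correlation of 0.64 and a Spearman correlation of 0.69, against 0.46 and 0.27 across all genes. The members were chosen on both of these contrasts, so nothing is read from the gap. The cultures have no arrays in common but share both lines, and genes are not independent replicates.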

How the data were processed

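Per the submitters' processing notes, Partek 6.6 and RMA were the tools with which the authors made the deposited log2 values. RMA corrects background, equalises arrays by quantiles and summarises each probe set. A genome build for the annotation was not given in the sources used here. Array medians ran from 4.03 to 4.13 and replicate arrays correlated at 0.987 to 0.994 across genes. The number of arrays limits the precision. Of 20276 probe sets, 18062 carried 1 gene symbol, and those with several (1288) or none (926) were left out. The brightest probe set stood for each of 17448 genes, with no filter on low values. All 59 members had one, and WEE1 (3) and DKK3 (2) had more.

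One limma 3.58.1 model in R 4.3.3 had a coefficient for each of 9 groups, with 15 residual and 9.81 prior degrees of freedom. Tests were 2-sided, and a gene was called at an adjusted p under 0.05 (Benjamini-Hochberg over the 17448 genes). Tested on simulated data, it recovered 100% of changes of 1 log2 and 48% of 0.5 log2 for induction in 3D, 99% and 51% for the knockdown, 91% and 28% for C66, 95% and 27% for C75 over C66, and 100% and 83% for culture. The members, the partner and marker lists and the tests were chosen with earlier results of these data known. Every array of the induced and control lines is given for the 8 members with the largest and the 8 with the smallest mean of the 3D and 2D differences. The same holds for the up to 8 largest called elsewhere. Other genes of the interval are the 6 highest and 6 lowest above the median level, with LDHA and ADM. LGR4, LIN7C, RRP8 and ILK were added after their values were seen. Gene order and promoters came from RefSeq tables (GRCh38.p14). The alternatives were the mean of all probe sets, only genes above the median level, arrays centred on their median, a trended robust prior, the replicate block, only the groups compared, and each array left out.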

Additional observations from a re-analysis of the deposited data

Results flagged for a closer look

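The level of WEE1 differed between the knockout clones by a test of that difference, 0.782 log2 higher in C75 than in C66 (limma adjusted p = 0.0147, 2 arrays each, both of C75 above both of C66). The other 2 probe sets of WEE1 gave 0.11 and 0.03, and the cause was not tested.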

How the results depend on the processing

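Of 122 recomputed counts and medians, 111 were classed as kept, 7 moved, 3 fell from 1 call to 0 and 1 rose from 0 calls to 1. Those classed as kept include counts of another size, such as 12 members called by culture against 17. The median difference of the members moved to 0.48 in 3D and 0.58 in 2D with only genes above the median level, and to 0.50 and 0.61 with only those of them before LIN7C, an alternative added after seeing the data. Leaving out single arrays, it ranged from 0.26 to 0.34 in 3D and from 0.39 to 0.49 in 2D, and the separated members from 28 to 35 and from 36 to 42. The separated members could only stay as many or grow in number when an array was left out. With only genes above the median level, 1 member (WEE1, lower) was called in C66, by its brightest probe set, where the others gave 0.06 and -0.21 in the main fit. The clone difference had 0 members called with the mean of the probe sets and 0 to 1 with single arrays left out. With single arrays left out, culture had 14 to 18 members called, the partners 3 to 4 in each culture, and the knockdown, C66 and C75 0. Culture had 12 with only the arrays of the groups compared. Partners called numbered 5 in 3D (PAF1 and ELP5 added to the 3) and 5 in 2D (PSMB1 and TBP added) with only genes above the median level, and 5 in 2D with the trended robust prior. With the replicate block the counts were 0 for the knockdown, 0 for C66, 0 for C75, 1 between the clones and 18 for culture, and WEE1 kept 0.782 (limma adjusted p = 0.0393). Arrays of 2 groups were also correlated across genes by their deviations from the group means. Same-numbered arrays of the induced and control lines then gave -0.21 to 0.15 in 3D and -0.11 to 0.05 in 2D. Those of the shRNA pair gave -0.04 to 0.17. Arrays of different number gave -0.22 to 0.29, -0.15 to 0.16 and -0.17 to 0.125. With so few arrays, these values cannot tell whether same-numbered arrays shared more than a number. No value changed its direction.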
